A study of Homo sapiens with 6 samples.

Results

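The genes examined here carry symbols from ZNF500 to ZNF799, numbers given to human zinc finger genes in the order of their naming. Their expression was compared between SUM159 cells exposed to 1 µM decitabine for 72 h and SUM159 cells labelled NT, read here as untreated, at the same time, with 3 arrays per group and medium refreshed daily under treatment. Members were all array features annotated with 1 gene whose RefSeq symbol is ZNF, a number within that range and at most 1 letter, without antisense and pseudogene symbols. Where a gene had several features, the brightest by its average across the 6 arrays was used. In this way 196 members were found among 14884 named genes, 101 of them on chromosome 19 and 95 on 16 other chromosomes, and all 196 are protein-coding in the RefSeq gene table. That table lists 218 protein-coding genes under the same rule, and the remaining 22 were not analysed here. No filter on low values was applied, so every member entered the test.

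Most human zinc finger genes encode transcription factors with tandem C2H2 fingers, each of which contacts a few bases of DNA. Many members also carry a KRAB domain, which recruits the corepressor TRIM28 and, through it, the histone methyltransferase SETDB1 and heterochromatin proteins, and many proteins of this class bind and silence transposable elements. KRAB zinc finger genes arose by tandem duplication and lie in clusters, most of them on chromosome 19, and promoters of several gain DNA methylation in tumours. Decitabine is incorporated into DNA in place of deoxycytidine and depletes DNA methyltransferases, so that daughter cells lose methylation. SUM159 is an established line from a human breast carcinoma without hormone receptors and with mesenchymal traits.

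The values are those deposited by the authors and were read as log2 expression values, since the files do not name the scale. Nothing in the labels shows that the arrays of a group came from separate cultures, so p-values measure the spread between these arrays, which may be technical. The labels used here name no solvent or vehicle, and the titles of both groups carry the drug's concentration, so the groups rest on the treatment names. Medians over all features were 2.37 to 2.98 in the decitabine arrays and 2.29 to 3.03 in the untreated arrays, with both arrays of replicate 1 at the upper end. Of the markers of SUM159 cells, VIM, CD44, AXL and ZEB1 had means of 5.82 to 8.81 in decitabine cells and 6.33 to 9.36 in untreated cells. The hormone receptor genes ESR1 and PGR had means of 1.86 and 2.19 in decitabine cells and 2.03 and 1.91 in untreated cells. The measured leukocyte markers CD14 and LYZ had means of 1.64 to 3.19 in decitabine cells and 1.73 to 2.47 in untreated cells, and the endothelial markers PECAM1 and VWF 2.46 to 2.50 in decitabine cells and 2.07 to 2.80 in untreated cells. Among 8 measured luminal epithelial markers EPCAM (change 1.10) and KRT19 (0.63) were higher with the replicate block. Of the other luminal markers, PGR changed by 0.28, KRT18 by 0.19, KRT8 by -0.30, TFF1 by -0.23, ESR1 by -0.18 and GATA3 by -0.11. None of these others passed with or without the block. KRT18 and GATA3 had means of 7.91 and 5.54 in decitabine cells and 7.72 and 5.65 in untreated cells. CD14 was also higher with the block (0.72), and ZEB1 was lower with it (-0.51, adjusted p = 0.0438). AXL fell in the fit without the block (-1.79, adjusted p = 0.00361 by limma). Summed over a list, the luminal markers reached 30.2 to 34.3 in decitabine arrays and 28.3 to 33.1 in untreated arrays. The leukocyte markers reached 4.38 to 5.28 in decitabine arrays and 3.54 to 4.60 in untreated arrays. The sum of the SUM159 markers was lower without overlap, 27.0 to 28.2 in decitabine arrays and 29.3 to 31.1 in untreated arrays. Its genes did not move alike. AXL had the largest change (-1.79), VIM changed by -0.55 and ZEB1 by -0.51, while CD44 was higher by 0.27. VIM and CD44 passed neither with nor without the block. The sum of the neuron markers MAP2 and SYT1 was also lower without overlap, 9.33 to 9.58 in decitabine arrays and 10.1 to 11.2 in untreated arrays. Means of MAP2 were 5.49 in decitabine cells and 6.27 in untreated cells, and those of SYT1 3.96 and 4.42. The part of these markers in the results below was not tested.

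After decitabine 5 of the 196 members rose and none fell in the fit without the replicate block. The threshold was a Benjamini-Hochberg adjusted p under 0.05 by limma over all named genes. The risen genes were ZNF560, ZNF695, ZNF774, ZNF699 and ZNF502. Over all named genes 2.01% rose and 1.02% fell, so the members' share of rises, 2.55%, was close to that background in this fit. At an unadjusted p under 0.05 in the same fit, 24 members were higher and 11 lower, 12.2% and 5.61%, against 8.13% and 5.79% of all named genes. With the replicate number as a block, described below, 12.2% of members rose and 3.57% fell, against 7.79% and 5.37% of all named genes.

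ZNF560, a KRAB zinc finger gene on chromosome 19, had the largest rise of any member. Its log2 values were 4.36, 4.83 and 4.48 in decitabine cells and 2.85, 1.95 and 1.27 in untreated cells. The groups did not overlap, and untreated replicate 1, the highest of the untreated values, was 1.51 below the lowest decitabine value. The change was 2.53 on the log2 scale (SE 0.38, adjusted p = 0.0140), a 5.79-fold difference. Its untreated mean of 2.02 ± 0.79 (SD, n = 3) lay below the lowest untreated array median of 2.29, and since no measure of background was used, the size of a rise from such a level holds only for the deposited values.

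ZNF695, a KRAB zinc finger gene on chromosome 1, had values of 5.44, 5.91 and 5.45 in decitabine cells and 3.89, 3.82 and 4.55 in untreated cells. Each decitabine array lay above all untreated arrays, and the change was 1.51 (SE 0.27, adjusted p = 0.0251). ZNF774, a C2H2 zinc finger gene on chromosome 15, had 5.43, 4.94 and 5.05 in decitabine cells and 3.52, 3.49 and 4.11 in untreated cells, a change of 1.43 (SE 0.25, adjusted p = 0.0250). Untreated replicate 3 was the highest untreated value for both genes.

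ZNF699, a KRAB zinc finger gene on chromosome 19 related to the Drosophila gene hangover, had 6.24, 6.31 and 5.69 in decitabine cells and 4.34, 4.84 and 4.85 in untreated cells. Its change was 1.40 (SE 0.26, adjusted p = 0.0287), and its untreated mean of 4.68 lay above every untreated array median. ZNF502, a C2H2 zinc finger gene on chromosome 3, had 4.75, 4.26 and 4.02 in decitabine cells and 2.89, 3.26 and 3.0 in untreated cells, a change of 1.29 (SE 0.25, adjusted p = 0.0345). For both genes the groups did not overlap.

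**Figure D1:**
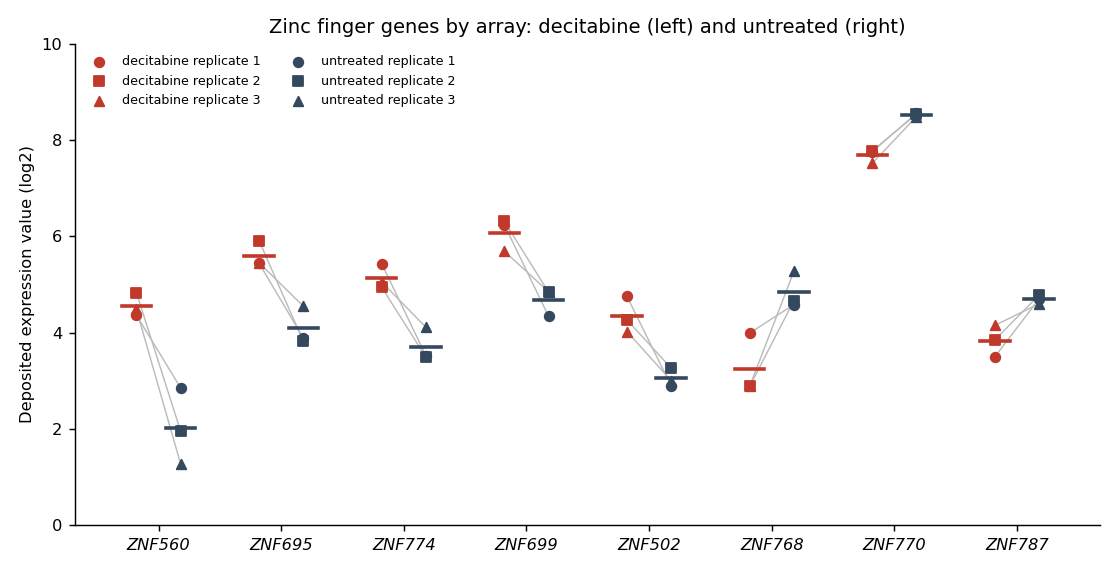
Deposited log2 values (vertical axis) of 8 zinc finger genes (horizontal axis) in the 3 decitabine arrays (red, left) and the 3 untreated arrays (dark, right). Symbols mark the replicate number, grey lines join arrays of the same number and bars are group means. The first 5 genes rose, with decitabine means of 4.34 to 6.08, and for all 8 genes the groups do not overlap.

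The count of 5 rises rested on few arrays. Leaving out decitabine replicate 1, 2 or 3 gave 1, 0 or 2 rises, and leaving out untreated replicate 1, 2 or 3 gave 1, 1 or 3, while rises over all named genes numbered 95 to 321 in these fits. ZNF560 passed without decitabine replicate 1, untreated replicate 1 or untreated replicate 3 (adjusted p of 0.00369 to 0.0353) and missed the threshold without any of the other arrays (0.0604 to 0.0703). With median centring of the arrays ZNF695 and ZNF699 missed it (adjusted p = 0.0685 for both). The count of rises was again 5 in that setting, since other members passed there.

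Same-numbered arrays of the groups deviated together from their group means, and with the replicate number as a block 24 members rose and 7 fell. Over all named genes 7.79% rose and 5.37% fell with the block, against 12.2% and 3.57% of the members. All 5 genes above were among the 24. For each of the other 19 risen members and the 7 fallen members the fit without the block did not pass the threshold (adjusted p of 0.0529 to 0.570 for the 19). Of these 26 genes 17 were also followed through the other settings, and 11 of the 17 passed in at least 1 fit without the block. They were the risen ZNF559 (5 settings), ZNF607, ZNF620 (2 each), ZNF530, ZNF532 and ZNF611 (1 each) and the fallen ZNF768 (6), ZNF770, ZNF621 (3 each), ZNF697 and ZNF787 (1 each). The alternative settings number 15 with the block among them. All reuse the same arrays, so a pass in some of them is not independent support.

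The 8 largest of these 19 rises were all at least 2-fold. ZNF559, a KRAB zinc finger gene on chromosome 19, had 4.95, 4.60 and 3.80 in decitabine cells and 3.08, 2.75 and 3.16 in untreated cells, a change of 1.45 with an adjusted p of 0.0214 with the block and 0.0529 without it. ZNF570 changed by 1.30, ZNF506 by 1.27, ZNF530 by 1.20, ZNF607 by 1.18 and ZNF611 by 1.14, all of them KRAB zinc finger genes on chromosome 19. ZNF680 on chromosome 7 changed by 1.13 and ZNF620 on chromosome 3 by 1.12, also of the KRAB class. Their adjusted p-values with the block were 0.00471 (ZNF620) to 0.0454 (ZNF570), and for each of the 8 the decitabine values lay above all untreated values.

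The pairs differed in how much they contributed. ZNF620 changed by 1.16, 1.04 and 1.15 in pairs 1, 2 and 3, and ZNF506 by 1.14, 1.08 and 1.58. ZNF570 changed by 1.52, 2.01 and 0.36 and ZNF530 by 1.43, 0.36 and 1.82, so that 1 pair of each was far below the others.

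The other 11 rises with the block, named after their values were seen, ran from 0.58 (ZNF616) to 0.97 (ZNF589). They were ZNF567, ZNF614, ZNF583, ZNF569, ZNF772, ZNF649 and ZNF616 on chromosome 19 and ZNF589, ZNF597, ZNF594 and ZNF532 elsewhere. ZNF597, an imprinted gene on chromosome 16 expressed from the maternal allele, had 5.67 ± 0.32 in decitabine cells and 4.92 ± 0.18 in untreated cells (SD, n = 3 each), a change of 0.75 (adjusted p = 0.0175 with the block and 0.169 without it). Decitabine and untreated values overlapped for ZNF616, ZNF649, ZNF594 and ZNF583 and for none of the other 7.

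The 7 members that fell with the block had untreated means of 4.18 to 8.53. ZNF768, a zinc finger gene on chromosome 16, had 3.99, 2.88 and 2.88 in decitabine cells and 4.58, 4.66 and 5.27 in untreated cells. The change was -1.59 (SE 0.35), or 3.0-fold lower, with an adjusted p of 0.0310 with the block and 0.0585 without it, and pair 1 moved least (-0.59, against -1.78 and -2.39).

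ZNF770, a zinc finger gene on chromosome 15, was the member with the highest untreated level. It had 7.76, 7.78 and 7.52 in decitabine cells and 8.56, 8.54 and 8.49 in untreated cells, a change of -0.84 (SE 0.19, adjusted p = 0.0115 with the block and 0.0620 without it). The fall was of like size in the pairs (-0.80, -0.76 and -0.97), and the other feature of the gene gave -1.05.

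ZNF697 on chromosome 1 changed by -0.94 and ZNF787, the member of chromosome 19 that fell, by -0.86. ZNF621, a KRAB zinc finger gene on chromosome 3, changed by -0.76. ZNF598, an E3 ubiquitin ligase that recognises collided ribosomes, had 4.79 ± 0.41 in decitabine cells and 5.46 ± 0.35 in untreated cells (SD, n = 3 each), a change of -0.68. ZNF512B changed by -0.49. Adjusted p-values of these 5 genes were 0.0166 (ZNF697) to 0.0488 (ZNF512B) with the block and 0.102 (ZNF787) to 0.497 (ZNF512B) without it, and the groups overlapped for ZNF598 and ZNF512B.

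The RefSeq start-site windows of the 5 members that rose in the fit without a block are given first, because methylation at CG dinucleotides is what decitabine removes, and those of ZNF768 and ZNF770, which fell with the block, follow. Each covers 300 bases, from 250 before to 50 after the annotated start in GRCh38.p14, written 5′ to 3′ on the gene's strand with every CG in capitals. ZNF560 is on the minus strand (chr19:9498567-9498866), ZNF699 on minus (chr19:9309789-9310088), ZNF774 on plus (chr15:90352034-90352333), ZNF695 on minus (chr1:247008008-247008307) and ZNF502 on plus (chr3:44712410-44712709). ZNF768 is on minus (chr16:30526517-30526816) and ZNF770 on minus (chr15:34988238-34988537).
ZNF560: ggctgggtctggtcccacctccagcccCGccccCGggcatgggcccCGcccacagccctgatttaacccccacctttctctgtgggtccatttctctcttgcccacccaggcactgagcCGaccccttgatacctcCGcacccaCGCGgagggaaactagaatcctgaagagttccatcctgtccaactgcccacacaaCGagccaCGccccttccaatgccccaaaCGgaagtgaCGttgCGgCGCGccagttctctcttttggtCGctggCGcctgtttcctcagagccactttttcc
ZNF699: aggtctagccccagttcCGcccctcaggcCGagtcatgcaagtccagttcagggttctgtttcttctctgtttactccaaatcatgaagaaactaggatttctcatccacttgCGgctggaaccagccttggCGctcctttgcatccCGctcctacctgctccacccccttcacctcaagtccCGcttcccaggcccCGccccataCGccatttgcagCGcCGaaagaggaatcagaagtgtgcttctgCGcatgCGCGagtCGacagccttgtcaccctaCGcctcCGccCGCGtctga
ZNF774: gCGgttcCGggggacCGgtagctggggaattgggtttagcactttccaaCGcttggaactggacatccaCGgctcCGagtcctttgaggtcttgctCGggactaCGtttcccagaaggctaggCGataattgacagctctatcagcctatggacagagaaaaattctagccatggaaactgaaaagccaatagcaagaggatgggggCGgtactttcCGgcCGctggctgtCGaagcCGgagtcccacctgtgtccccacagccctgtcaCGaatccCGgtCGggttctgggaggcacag
ZNF695: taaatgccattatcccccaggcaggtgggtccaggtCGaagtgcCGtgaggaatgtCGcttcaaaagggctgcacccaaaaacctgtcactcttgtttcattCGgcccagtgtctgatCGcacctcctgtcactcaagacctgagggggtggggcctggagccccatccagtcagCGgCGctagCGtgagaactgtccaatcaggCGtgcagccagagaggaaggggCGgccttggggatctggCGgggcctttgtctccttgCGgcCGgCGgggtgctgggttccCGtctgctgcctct
ZNF502: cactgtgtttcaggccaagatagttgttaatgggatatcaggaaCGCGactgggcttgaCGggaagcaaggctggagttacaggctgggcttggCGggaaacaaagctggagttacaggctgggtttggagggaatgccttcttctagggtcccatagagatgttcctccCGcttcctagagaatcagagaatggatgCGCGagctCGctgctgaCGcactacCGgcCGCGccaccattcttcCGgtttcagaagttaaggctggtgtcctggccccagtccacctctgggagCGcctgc
ZNF768: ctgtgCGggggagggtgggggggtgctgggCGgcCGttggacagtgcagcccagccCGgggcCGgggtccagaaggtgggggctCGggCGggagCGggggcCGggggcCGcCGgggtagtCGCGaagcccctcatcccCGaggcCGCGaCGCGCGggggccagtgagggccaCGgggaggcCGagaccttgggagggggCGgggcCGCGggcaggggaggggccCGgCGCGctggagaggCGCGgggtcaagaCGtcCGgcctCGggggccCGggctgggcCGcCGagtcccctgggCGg
ZNF770: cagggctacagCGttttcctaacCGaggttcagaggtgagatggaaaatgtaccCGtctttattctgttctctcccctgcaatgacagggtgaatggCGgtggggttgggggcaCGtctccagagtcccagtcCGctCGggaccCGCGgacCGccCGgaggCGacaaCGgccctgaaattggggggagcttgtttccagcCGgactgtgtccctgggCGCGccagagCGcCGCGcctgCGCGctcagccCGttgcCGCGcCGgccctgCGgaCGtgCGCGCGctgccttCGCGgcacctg

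These windows held 16 CG in ZNF560, 18 in ZNF699, 17 in ZNF774, 15 in ZNF695 and 14 in ZNF502, against 36 in ZNF768 and 32 in ZNF770. The other fallen members with a window, not shown, were ZNF697 with 22 CG, ZNF787 with 32 and ZNF598 with 43. ZNF697 and ZNF787 fell slightly more than ZNF770. CG reads the same on both strands, at least 1 CG was found in 96.0% of all 35116 windows of the table, and 41.2% of windows held 20 or more. These shares count windows, of which a gene can have several, and are not a background for the counts of genes below. A window was given for 161 members, and the mean count was taken for the 31 that had several. By the replicate block, the 21 risen members with a window had a median of 18 CG (12 to 37), the 5 fallen ones 32 (22 to 43), and the 135 others 22.5 (0 to 53). All named genes with a window had a median of 22. At least 20 CG were present in 8 of the 21 risen, 5 of the 5 fallen and 86 of the 135 other members, and in 61.5% of all members with a window. These are descriptions with no test. The CG count was also related to the untreated level (Spearman's rho 0.39 over 161 members, which share the same arrays). The fallen members had untreated means of 4.18 to 8.53, and for them CG count and level were not separated here. The risen members had a median untreated level of 3.49 and the members that were not called 3.58. The files hold no measure of DNA methylation.

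**Figure D2:**
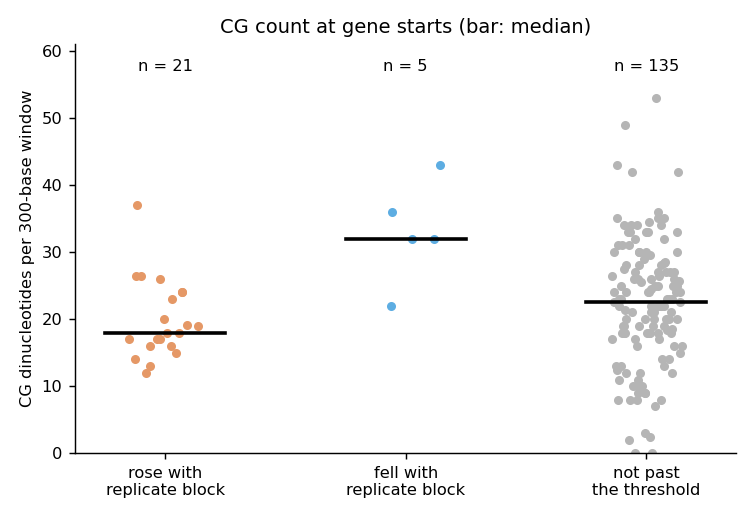
CG dinucleotides per 300-base window at the gene start (vertical axis) for members that rose with the replicate block, fell with it or did not pass the threshold (horizontal axis). Each point is a gene and bars are medians, 18 for risen, 32 for fallen and 22.5 for the other members.

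By the replicate block 165 members neither rose nor fell. Their changes ran from -0.79 (ZNF771) to 0.91 (ZNF527) with a median of 0.02, and 140 of them were within 0.5 of zero. Over all 196 members the median change was 0.05, with medians of 0.11, 0.105 and 0.00 in pairs 1, 2 and 3. Leaving out single arrays gave medians of -0.019 (decitabine replicate 1) to 0.18 (untreated replicate 1). The median over all named genes was -0.02, and 0.00 in each pair. The quartiles of the members' changes were -0.18 and 0.435, against -0.21 and 0.21 for all named genes. In 56 members all 3 pairs were higher in decitabine cells and in 37 all 3 were lower, 28.6% and 18.9%, against 22.9% and 21.8% of all named genes. Decitabine values lay above all untreated values for 29 members and below them for 13, 14.8% and 6.63%, against 11.3% and 8.74% of all named genes.

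Some values of the table were the same in both arrays of a pair. Among the members 12, 15 and 12 had identical values in pairs 1, 2 and 3, 6.12% to 7.65%, whereas arrays with different numbers shared a value for at most 2 members. Over all features these shares were 6.44% to 8.28% in the pairs. No member called with the block had an identical value in any pair. ZNF527, whose values in pair 3 were 2.98 and 2.98, changed by 1.09 and 1.65 in the other pairs and did not pass (adjusted p = 0.112 with the block).

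The members on chromosome 19 were shifted upward relative to those elsewhere. The median change was 0.16 over the 101 members on chromosome 19 and -0.02 over the 95 elsewhere, a difference of 0.19. The medians were 0.21, 0.26 and 0.07 in the pairs on chromosome 19 and 0.00, 0.02 and -0.12 elsewhere, so that the difference was 0.21, 0.24 and 0.19. These are medians over genes with no test between the locations. With single arrays left out, the median on chromosome 19 was 0.073 for decitabine replicate 1, 0.10 for untreated replicate 2 and 0.29 for untreated replicate 1, and the median elsewhere ran from -0.11 to 0.12. The difference between the locations was 0.09 to 0.29 over the 15 alternative settings, with its lowest value without decitabine replicate 2.

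Without the block 2 members on chromosome 19 and 3 elsewhere rose, 1.98% and 3.16%, against 2.04% of named genes on chromosome 19 and 2.01% of those on other chromosomes. With the block 15 rose and 1 fell on chromosome 19, 14.9% and 0.99%, while 7.49% of all named genes on that chromosome rose and 2.31% fell. Elsewhere 9 rose and 6 fell with the block, 9.47% and 6.32%, against 7.81% and 5.61% of named genes on other chromosomes. No member on chromosome 8, of which 12 were measured, rose or fell in either fit. Over all named genes 13.2% rose or fell with the block and 3.03% without it. With 12 genes the absence of calls is therefore not a result about that chromosome.

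Other zinc finger genes, with ZNF numbers outside this range or ZFP, ZSCAN or ZKSCAN symbols, had similar medians by location. The median change was 0.215 over 134 such genes on chromosome 19 and -0.035 over 180 elsewhere. With the block 31 rose and 1 fell on chromosome 19, 23.1% and 0.746%, and 21 rose and 12 fell elsewhere, 11.7% and 6.67%. The remaining 846 named genes of chromosome 19 had a median of -0.04, with 35 higher and 23 lower with the block, 4.14% and 2.72%. Without the block 16 of the 314 other zinc finger genes rose and 4 fell, 5.10% and 1.27%.

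**Figure D3:**
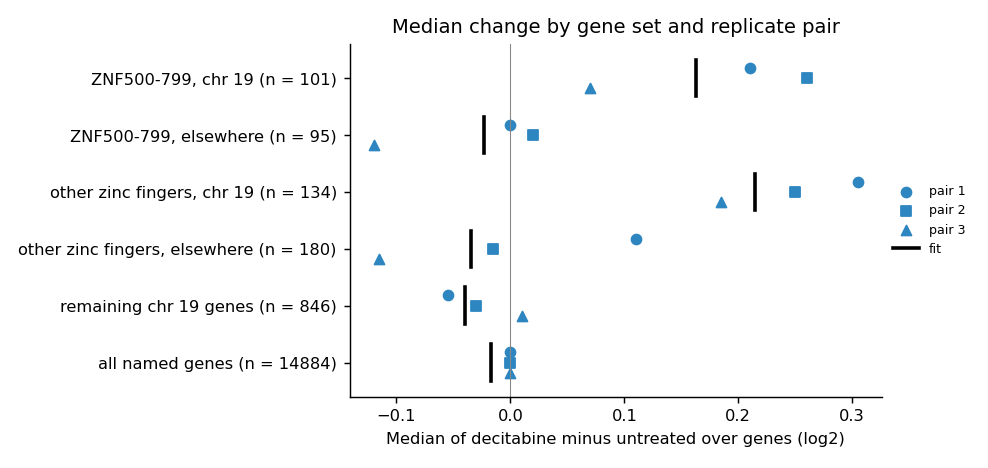
Median over genes of decitabine minus untreated (log2, horizontal axis) for 6 gene sets (vertical axis), in the fit (black bar) and in each same-numbered pair (symbols). The 101 members and 134 other zinc finger genes of chromosome 19 have medians of 0.16 and 0.215, and the other sets lie between -0.04 and -0.02.

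Along chromosome 19 members were taken as neighbours when no other protein-coding gene of the RefSeq table lay between their starts. The only members risen with the block that neighboured each other were ZNF699 with ZNF559 and ZNF569 with ZNF570. The 101 members formed 22 runs of 2 to 6 neighbours, which held 55 of them. In 20 of 33 pairs of adjacent members both changes were positive and in 3 both were negative. Of all 101 members 64 (63.4%) had a positive change, and how many such pairs another order would give was not computed. Whether neighbours were more alike than other members was not tested. Genes of a run are similar in sequence, and whether their features also detect each other's RNA was not tested.

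ZNF699 and ZNF559 were such neighbours, with changes of 1.40 and 1.45. ZNF560 follows with 3 protein-coding genes between, of which ZNF266, a KRAB zinc finger gene outside the numbers examined and named after its value was seen, had a named feature. ZNF266 had 6.52, 6.52 and 6.51 in decitabine cells and 5.20, 5.58 and 5.95 in untreated cells, a change of 0.94 (adjusted p = 0.0224 with the block and 0.0862 without it). On the far side of ZNF560, ZNF426 and ZNF121, also named after their values were seen, changed by 0.25 and -0.04 and did not pass.

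The run of ZNF527, ZNF569, ZNF570 and ZNF793, all KRAB zinc finger genes, had changes of 0.91, 0.73, 1.30 and 0.01. ZNF569 had 3.96, 3.73 and 3.34 in decitabine cells and 3.27, 3.0 and 2.56 in untreated cells, an even shift of 0.69, 0.73 and 0.78 in the pairs (adjusted p = 0.0155 with the block and 0.245 without it). ZNF793, next to the risen ZNF570, had 2.11 ± 0.41 in decitabine cells and 2.10 ± 0.52 in untreated cells (SD, n = 3 each). The longest run, of ZNF671, ZNF776, ZNF586, ZNF552, ZNF587B and ZNF587, had positive changes of 0.05 to 0.89, and none of the 6 passed either test.

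**Figure D4:**
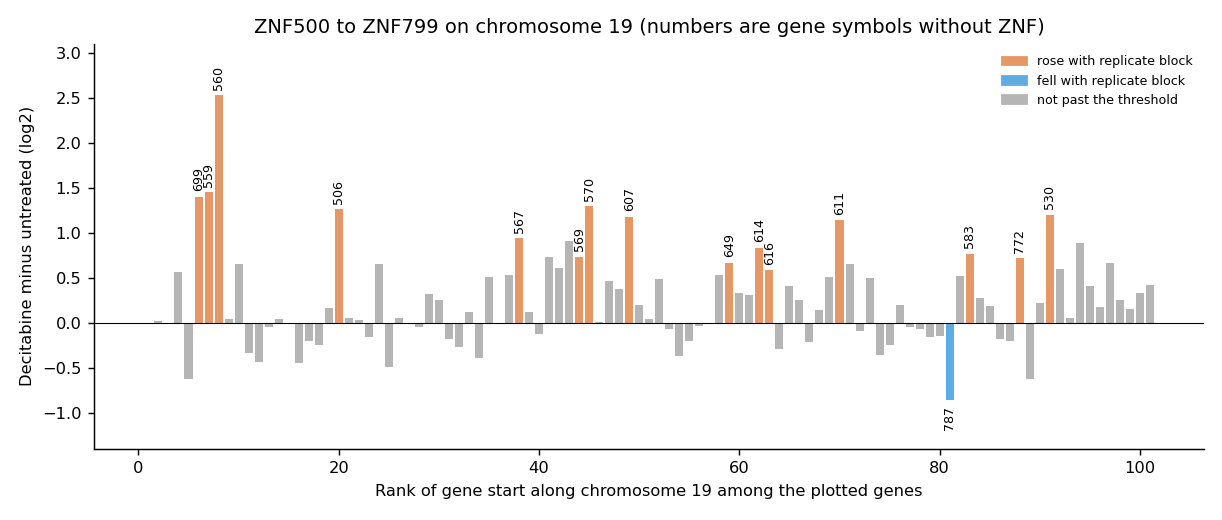
Decitabine minus untreated (log2, vertical axis) of the 101 members on chromosome 19 in the order of their starts (horizontal axis, rank only). Orange bars rose and the blue bar fell with the replicate block, grey bars did not pass, and ZNF560 at 2.53 is the highest.

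Members were also divided into 3 parts by untreated mean, at 2.93 and 4.09 on the log2 scale. The median change was 0.12 over the 65 members of the low part, 0.15 over the 65 of the middle part and -0.15 over the 66 of the high part. All named genes in the same ranges had medians of -0.02, -0.03 and -0.01. With the block 6 members rose and none fell in the low part, against 5.27% higher and 0.33% lower among all named genes of that range. In the middle part 11 rose and none fell, against 7.7% and 2.32%, and in the high part 7 rose and 7 fell, against 10.1% and 11.4%. The members' shares were 9.23% and 0.00% in the low, 16.9% and 0.00% in the middle, and 10.6% and 10.6% in the high part.

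The untreated arrays enter both the level and the change, which by itself favours rises at low levels. With the parts set by the mean over all 6 arrays, the medians were 0.053, 0.19 and -0.07. With the block 2 members then rose and none fell in the low part, 3.03% and 0.00%, against 2.57% and 0.697% of all named genes of that range. The middle part then held 12 rises and 2 falls, 18.5% and 3.08%, against 10.4% and 3.86%, and the high part 10 and 5, 15.4% and 7.69%, against 11.7% and 10.6%. The count of rises in the low part and the absence of falls in the middle part therefore depended on how the level was set. With the parts set by the untreated mean, leaving out decitabine replicate 1 gave medians of 0.027 for the low and 0.0067 for the middle part, and leaving out untreated replicate 1 gave 0.31 and 0.245. Leaving out untreated replicate 2 gave 0.07 and 0.092, and untreated replicate 3 gave 0.022 for the low part. Leaving out single arrays gave -0.1125 to -0.035 for the high part. With the level taken from 1 untreated array and the change from the pairs that did not include it, the medians were 0.085 to 0.13 in the low, 0.055 to 0.175 in the middle and -0.125 to -0.0475 in the high part. Spearman's rho between change and untreated mean was -0.20 over the 196 members and -0.03 with the mean over 6 arrays, given as descriptions of genes that share arrays. Within each part the median was higher on chromosome 19 than elsewhere, 0.14 and 0.08 in the low, 0.21 and 0.05 in the middle and 0.05 and -0.19 in the high part.

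**Figure D5:**
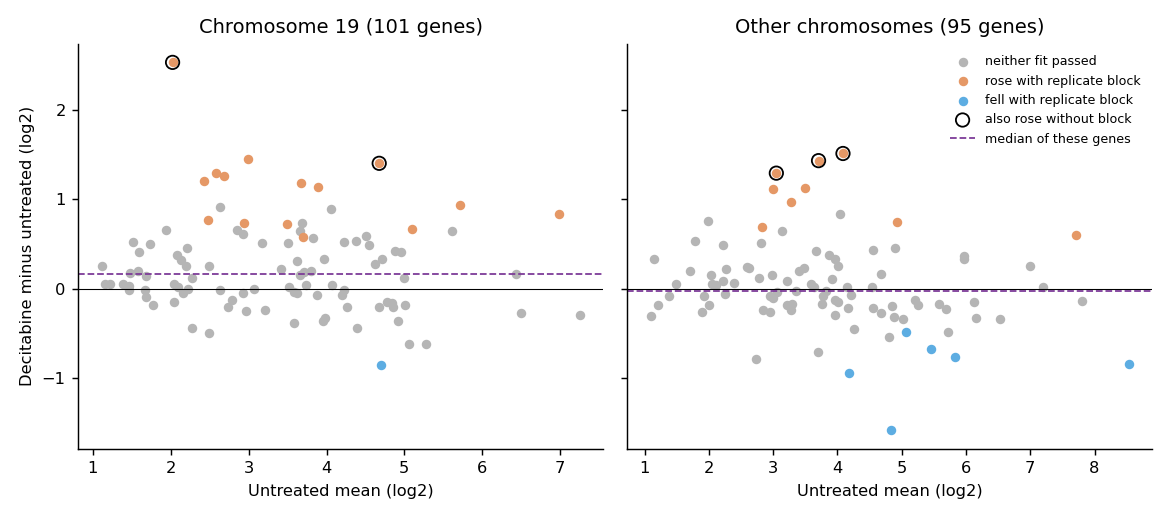
Decitabine minus untreated (log2, vertical axis) against the untreated mean (log2, horizontal axis) for members on chromosome 19 (left) and elsewhere (right). Orange and blue points rose or fell with the replicate block, open rings also rose without it, and dashed lines are medians (0.16 and -0.02). All blue points lie at untreated means of 4.18 or more.

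Some further members with established roles apart from KRAB repression, picked for those roles and not from a fixed list, are given by their values. ZNF638, which silences unintegrated retroviral DNA with the HUSH complex, had 7.22 ± 0.12 in decitabine cells and 7.20 ± 0.07 in untreated cells (SD, n = 3 each), a change of 0.01 with a 95% confidence interval of -0.43 to 0.45. ZNF644, a partner of the histone methyltransferases EHMT1 and EHMT2 and among the most highly expressed members, had 7.67 ± 0.24 in decitabine cells and 7.81 ± 0.19 in untreated cells, a change of -0.14 (-0.65 to 0.37). ZNF532, a partner of the chromatin reader ZMYND8, had 8.59, 8.24 and 8.13 in decitabine cells and 7.74, 7.69 and 7.72 in untreated cells, and its change of 0.60 passed with the block (adjusted p = 0.0429) and not without it (0.215). ZNF592 and ZNF687, of the same complex, changed by 0.33 and -0.22 and did not pass either test.

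ZNF703, an oncogene of luminal breast cancer, had 3.66 ± 0.50 in decitabine cells and 3.64 ± 0.46 in untreated cells (SD, n = 3 each). Its paralogue ZNF503 changed by 0.25 and ZNF750, a regulator of epidermal differentiation, by 0.12. ZNF622, a factor of large ribosomal subunit maturation, changed by -0.33, and ZNF671 and ZNF582, whose promoters are often methylated in carcinomas, by 0.05 and 0.52. None of these 6 genes passed either test. Copies that are nearly alike cannot be told apart with certainty on an array, among them ZNF705A, ZNF705B, ZNF705D and ZNF705G and the pairs ZNF585A and ZNF585B, and ZNF780A and ZNF780B. None of these 8 passed either test.

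Corepressors and heterochromatin proteins that act with KRAB zinc finger proteins were described as a list of 39 genes, of which 28 were measured. Of these 3 rose and 0 fell without the block, 10.7% and 0.00%, against 2.01% and 1.02% of all named genes (median change 0.20 over the list and -0.02 over all named genes). The list had a higher untreated level, with a median of 6.13 against 3.53 over all named genes. Among named genes with untreated means above 4.09, 2.24% rose and 2.32% fell without the block. The risen ZFP57, described below, had an untreated mean of 3.54 and so lay outside that range. The KRAB corepressor TRIM28 itself had 6.67, 6.92 and 7.01 in decitabine cells and 6.79, 7.08 and 7.14 in untreated cells, a change of -0.14 (SE 0.21, adjusted p = 0.972). Its arrays overlapped between the groups, and SETDB1 had no named feature here.

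SUV39H2, a methyltransferase for lysine 9 of histone H3, had 7.03, 7.03 and 6.87 in decitabine cells and 5.94, 5.89 and 5.97 in untreated cells, a change of 1.04 (SE 0.19, adjusted p = 0.0259). ATF7IP2, a relative of the SETDB1 partner ATF7IP, rose by 1.06 (SE 0.21, adjusted p = 0.0418). ZFP57, a KRAB zinc finger protein that keeps methylation at imprinted loci and is also counted among the other zinc finger genes, had 4.52, 4.88 and 4.69 in decitabine cells and 3.90, 3.43 and 3.29 in untreated cells, a change of 1.16 (SE 0.24, adjusted p = 0.0434). All 3 missed the threshold with median centring (adjusted p of 0.0724 to 0.166) and without any of the 3 decitabine arrays or untreated replicate 2 or 3 (0.0789 to 0.196). Without untreated replicate 1 ATF7IP2 missed it too (0.0787). With the block 7 of the 28 rose and 2 fell, 25% and 7.14%, against 7.79% and 5.37% of all named genes. Among named genes with untreated means above 4.09, a range that does not include ZFP57, 10.1% rose and 11.4% fell with the block. The fallen genes of the list were the NuRD subunits MTA1 (change -0.86) and GATAD2B (-0.70), named after their values were seen.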

How the data were processed

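Total RNA of 6 SUM159 samples was measured on 1-colour arrays. Per the submitters' processing notes the authors made the values with the Transcriptome Analysis Console. Its version and the normalization, filters and build behind these values are not stated in the labels or headers. Deposited values (48226 features, 0.17 to 12.89) were read as log2 values and used unchanged, with no intensity filter. Arrays have no read depth, and precision is limited by their number. Groups and replicate numbers came from the sample titles.

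The platform annotation gave 16098 features a single symbol, and the other 32128 features, without a single symbol, were not named here. Each of the 16098 had its Entrez Gene ID in RefSeq's gene table for GRCh38.p14. RefSeq supplied the symbols used here, chromosomes, gene order and start-site windows. The build of the arrays is unknown, so no array coordinates are given. Several features of a gene (5 members) were represented by the one with the highest mean over the 6 arrays.

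Tests used limma 3.58.1 (lmFit, eBayes) in R 4.3.3 over 14884 genes, two-sided, with Benjamini-Hochberg adjustment. The fit without the block was also run on simulated data with independent noise in each array. The fit with the block was not tried in this way. Python 3.11.15 made the summaries. Replicate numbers pair the samples: deviations from group means correlated at 0.682, 0.595 and 0.558 between same-numbered arrays and at -0.483 to -0.006 otherwise. This cannot tell samples handled together from arrays processed together. Blocked values stand beside results they change.

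Alternatives were the replicate block, quantile normalization, median centring, leaving out the dimmer 50% of genes, the mean of a gene's features, an intensity trend in eBayes, and leaving out each array or each pair. The members and lists were chosen with earlier results of these data known. Named genes were the members past the threshold, the largest rises and falls past it only with the block (8 each at most), the 3 with the highest untreated mean, the extremes by location, runs with 2 or more calls under the block, TRIM28, SETDB1 and corepressor genes that passed; others are named with their reason. Neuron markers MAP2 and SYT1 changed by -0.78 and -0.47 and did not pass.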

Additional observations from a re-analysis of the deposited data

How the results depend on the processing

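Counts of calls depended on the fit. The replicate block, under which same-numbered arrays are paired, gave 24 rises and 7 falls among the 196 members (5 and 0 without it), 15 and 1 on chromosome 19, 9 and 6 elsewhere, 52 and 13 among the other zinc finger genes, 7 and 2 in the corepressor list, and 1159 and 800 over all named genes. Quantile normalization gave 9 and 4 for the members, 5 rises on chromosome 19, 4 falls elsewhere, 7 falls among other zinc finger genes, 5 and 2 for corepressors, and 551 and 387 over all genes. Median centring gave 1 fall among the members, located elsewhere, 1 among other zinc finger genes, 0 rises of corepressors and 91 falls over all genes. With the dimmer 50% of genes left out there were 8 and 4 for the members, 4 and 1 on chromosome 19, 3 falls elsewhere, 8 falls among other zinc finger genes, 6 and 2 for corepressors, and 557 and 432 over all genes, where fewer genes were tested, and the median of the middle part by level was 0.28. With an intensity trend there were 10 and 3 for the members, 6 rises on chromosome 19, 3 falls elsewhere, 25 rises of other zinc finger genes, 7 and 2 for corepressors, and 694 and 468 over all genes. The cause of these differences was not tested. Setting the level by the mean over 6 arrays gave 0.053 for the median of the low part.

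Leaving out 1 array or 1 pair gave 0 to 3 rises and 0 to 1 falls among the members, with medians of -0.019 to 0.18. On chromosome 19 this gave 0 to 2 rises, 0 falls and medians of 0.073 to 0.29, and elsewhere 0 to 2 rises, 0 to 1 falls and medians of -0.11 to 0.12. Other zinc finger genes had 1 to 16 rises, 0 to 3 falls and medians of -0.069 to 0.15, and corepressors 0 to 2 rises, 0 falls and medians of 0.15 to 0.31. Over all genes there were 16 to 321 rises and 1 to 156 falls. Medians of the low, middle and high parts were 0.022 to 0.31, 0.0067 to 0.245 and -0.1425 to -0.035. Among the 29 named genes, ZNF793 changed sign: it was -0.15 with decitabine replicate 1 left out, -0.052 with decitabine replicate 2, -0.045 with untreated replicate 2, -0.21 with untreated replicate 3 and -0.11 with pair 2, and its change was never past the threshold.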
